A study of Mus musculus with 3 samples.

Results

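Genes of apoptosis, necroptosis, pyroptosis and the inflammasome were examined in RNA-seq of MC3T3-E1 cells, a wild-type line of preosteoblasts taken from mouse calvaria. The 36 genes were chosen by name: caspases, death-receptor adaptors and kinases, the BCL2 family, proteins of the mitochondrial intermembrane space, the caspase inhibitor Xiap, gasdermins, and inflammasome genes with their channels and cytokine. All 36 were among the 15287 genes listed in the table of FPKM (fragments adjusted for transcript length and library depth). There were 3 libraries, 1 per condition. Cells of the CTL library received no treatment. Those of the Ti library received titanium particles at 10 μg/cm2 for 24 h, and for the Ti+Se-Met library 5 μM Se-Met (selenomethionine) was added to the same dose of particles for the same 24 h. A single cell line stood for the osteoblast lineage, no replicates could check a difference, and no p-value was therefore computed.

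In apoptosis, initiator caspases are switched on either at death receptors or by cytochrome c released from mitochondria, and they then cut executioner caspases. The BCL2 family controls that release: pro-survival members hold back the pore formers, and BH3-only members relieve this block. Necroptosis runs through the kinases RIPK1 and RIPK3 to the membrane-breaking protein MLKL, and in pyroptosis an inflammasome activates an inflammatory caspase that cuts a gasdermin into a pore-forming fragment. Wear particles of implants reach osteoblasts and macrophages in the tissue around a prosthesis, where they provoke inflammation and loss of bone.

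The depths, estimated from the FPKM steps that single fragments leave in short genes, were 14150000 fragments in CTL, 14700000 with Ti and 10450000 with Ti+Se-Met. At these depths the members that passed a filter of 1 FPKM in at least 1 library had a median of 357 fragments per gene in CTL, 491 with Ti and 305 with Ti+Se-Met, and no fewer than 38. The filter kept 33 members, and Casp1, Pycard and Panx1 did not pass. All 11 osteoblast markers were listed. Those at high levels moved in different directions: Col1a1, a collagen gene, was at 1333.19, 354.2 and 481.63 FPKM in the order CTL, Ti, Ti+Se-Met, and Spp1, which encodes osteopontin, at 1261.19, 3705.78 and 4659.49 FPKM. Col1a2 (2688.49, 998.91 and 1256.6 FPKM), Sparc (649.22, 461.86 and 507.94), Runx2 (26.77, 17.14 and 22.97) and Bglap2 (3.76, 1.51 and 2.98) were lower in both treated libraries than in CTL. Sp7, Ibsp, Bglap and Pth1r were below 1 FPKM in every library, and Alpl was at 1.51 FPKM in CTL and 0.2 FPKM in both others. In bulk RNA, fewer cells of a type and less RNA per cell cannot be told apart.

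Mcl1 had the highest level of the 36 genes in every library and Bid the next highest. In CTL, 18 members were at 10 FPKM or more, against 21 with Ti and 20 with Ti+Se-Met. The median over the members was 10.85 FPKM in CTL, 12.07 with Ti and 11.54 with Ti+Se-Met, where the median over all listed genes was 7.55, 7.67 and 7.3 FPKM. Casp1 and Pycard stood at the bottom of the order in every library.

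**Figure D1:**
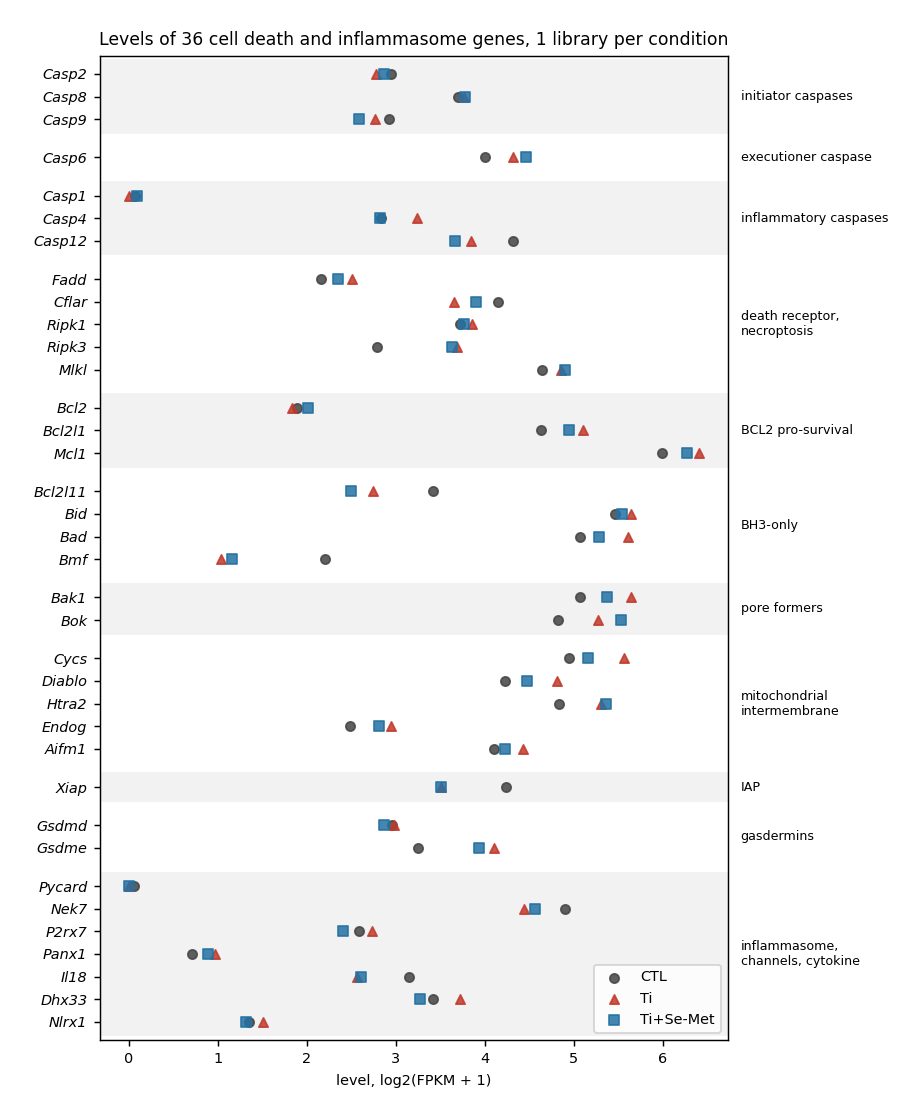
Level of each of the 36 genes on the log2(FPKM + 1) scale (horizontal axis), grouped by role, with 1 point for each of the CTL (circles), Ti (triangles) and Ti+Se-Met (squares) libraries. Levels ran from Pycard and Casp1 near 0 to Mcl1 at 62.48 to 84.22 FPKM, and the points of the Ti and Ti+Se-Met libraries lie together and below that of CTL in Xiap and Bmf and above it in Ripk3 and Gsdme.

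The first question was which of these genes differed between the Ti and CTL libraries. Ripk3, Gsdme, Cycs and Diablo were at least 1.5-fold higher in Ti on the log2(FPKM + 1) scale, and Bmf, Xiap, Bcl2l11 and Il18 were at least 1.5-fold lower. The 4 higher members were 12.1% of the 33 that passed, beside 15.5% of all genes, and the 4 lower ones were 12.1%, beside 11.3% of all genes. Only Bmf reached 2-fold on this scale among the members, where 7.26% of all genes did so in either direction. The shares of members past 1.5-fold were thus near those of all genes.

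A 95% exact conditional binomial interval of the FPKM fold was computed from the estimated fragments. It covers counting error alone and compares the 2 libraries, not the conditions. In what follows, a gene "rose" or "fell" where this interval excluded 1 at the deposited scale. From CTL to Ti, 19 members rose (57.6%, beside 42.8% of all genes), 7 fell (21.2%, beside 31.9%) and 7 had intervals that spanned 1. The median log2 ratio was 0.21 over the members and 0.08 over all genes. Over the members it was 0.02 in TPM, 0.08 when scaled by the upper quartile and 0.16 by the median of ratios.

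These counts moved with the scaling of the libraries. Scaling to TPM moved the median of all genes from 0.08 to -0.13 for Ti over CTL and from 0.01 to -0.17 for Ti+Se-Met over CTL. In Ti against CTL the split of members past 1.5-fold, 4 higher and 4 lower, became 2 and 7 in TPM, 2 and 4 with median-of-ratios scaling and 2 and 6 with upper-quartile scaling. The shares of all genes past 1.5-fold, higher and lower, were 7.51% and 19.6%, 13.6% and 12.9%, and 10.0% and 15.8% in the same order. In each of these 3 scalings Ripk3 and Gsdme were the 2 higher members, and Cycs and Diablo were under 1.5-fold. The split of rises and falls, 19 and 7, became 10 and 9 in TPM, 17 and 8 with median-of-ratios scaling and 13 and 9 with upper-quartile scaling. Among all genes, 27.8% rose and 46.5% fell in TPM, 39.9% and 34.6% with median-of-ratios scaling, and 34.1% and 40.5% with upper-quartile scaling. The share of all genes that rose or fell in every scaling was not computed. In all 4 scalings 10 members rose (Ripk3, Bcl2l1, Mcl1, Bad, Bak1, Bok, Cycs, Diablo, Htra2 and Gsdme) and 7 fell (Casp12, Cflar, Bcl2l11, Bmf, Xiap, Nek7 and Il18). The log2 ratio of Bid, Casp8, Gsdmd, Mlkl, P2rx7 and Ripk1 changed sign between scalings.

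**Figure D2:**
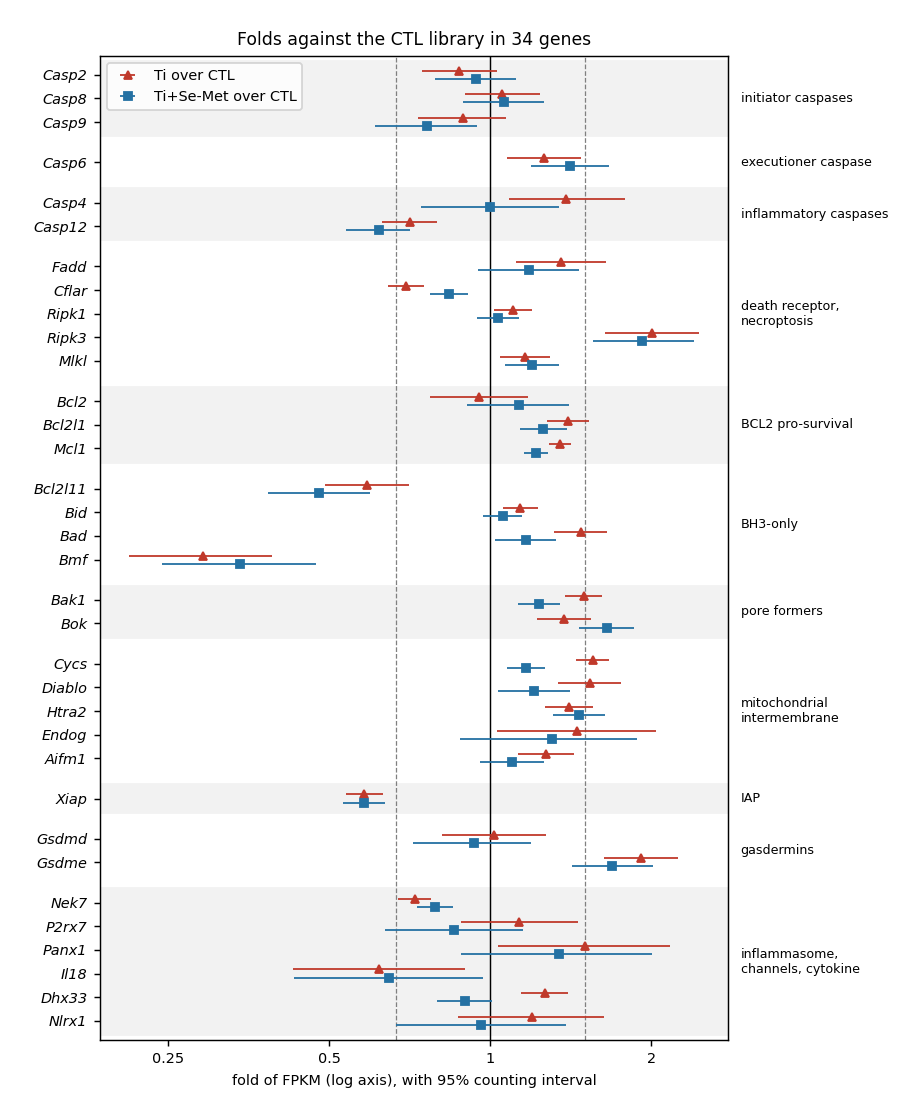
Fold of FPKM over the CTL library (horizontal log axis) in the Ti (triangles) and Ti+Se-Met (squares) libraries for the 34 genes other than Casp1 and Pycard, with bars for 95% counting intervals, a solid line at 1 and dashed lines at 1.5-fold in either direction. Ripk3 and Gsdme lie farthest to the right in Ti at 2.0 and 1.91, and Bmf farthest to the left at 0.291, and the 2 intervals of a gene share the CTL library.

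Among the initiator caspases, no member moved beyond counting error from CTL to Ti at the deposited scale. In TPM and with upper-quartile scaling the intervals of Casp2 and Casp9 lay below 1, with log2 ratios of -0.37 and -0.35 in TPM. Casp8, the initiator at death receptors, was at 11.97 FPKM in CTL, 12.6 with Ti and 12.69 with Ti+Se-Met. Casp9, the initiator of the mitochondrial route, was at 6.57, 5.83 and 5 FPKM in the same order, and its Ti over CTL fold was 0.887 (95% interval 0.733 to 1.07). Casp2, which acts after DNA damage and mitotic failure, was at 6.7, 5.85 and 6.29 FPKM. The 3 levels of Casp2 and of Casp8 lay close together. Casp6, an executioner caspase, was lowest in CTL and highest in Ti+Se-Met, at 14.98 FPKM in CTL, 18.9 with Ti and 21.12 with Ti+Se-Met. It rose 1.26-fold (1.08 to 1.48) in Ti, an interval that spanned 1 in TPM.

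The inflammatory caspases did not move together. Casp4, the mouse caspase-11 that senses lipopolysaccharide in the cytosol and cuts gasdermin D, was at 6.12 FPKM in CTL, 8.47 with Ti and 6.1 with Ti+Se-Met. Only the Ti library stood apart, and the Ti over CTL fold was 1.38 (1.08 to 1.78), an interval that spanned 1 in TPM. Casp12, a caspase of the endoplasmic reticulum, was at 18.9 FPKM in CTL, 13.37 with Ti and 11.69 with Ti+Se-Met, and fell to 0.707-fold (0.628 to 0.796) in Ti. Casp1, the caspase of the canonical inflammasome, was at 0.05 FPKM in CTL, 0 with Ti and 0.07 with Ti+Se-Met. A count of 0 in Ti allows up to 0.152 FPKM (3 fragments, counting error only), so no difference in Casp1 was detectable at this depth. Casp4, Fadd, Aifm1 and Dhx33 are also in a heat map that the study drew from these libraries, so their values here are not independent evidence. Without these 4, 15 of 29 members rose (51.7%, beside 42.8% of all genes) and 7 fell (24.1%, beside 31.9%) in Ti.

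Of the death-receptor and necroptosis genes, Ripk3 moved the most. Ripk3, the kinase that phosphorylates MLKL, was at 5.94 FPKM in CTL, 11.89 with Ti and 11.4 with Ti+Se-Met, and both Ti-treated libraries were well above CTL. It rose 2.0-fold (1.64 to 2.46) in Ti. Ripk1, its upstream partner, was at 12.22, 13.46 and 12.63 FPKM, with a Ti over CTL fold of 1.10 (1.02 to 1.20). Mlkl, the executor of necroptosis, was at 24.04, 27.88 and 28.81 FPKM, with a fold of 1.16 (1.04 to 1.29). The intervals of Ripk1 and Mlkl excluded 1 by little at the deposited scale, and their log2 ratios were below 0 in TPM. Fadd, the adaptor that brings caspase-8 to death receptors, was at 3.47 FPKM in CTL, 4.7 with Ti and 4.09 with Ti+Se-Met and rose 1.35-fold (1.12 to 1.65) in Ti, an interval that spanned 1 in TPM. Cflar, which encodes the caspase-8 inhibitor cFLIP, went the other way. It was at 16.71 FPKM in CTL, 11.62 with Ti and 14 with Ti+Se-Met, and fell to 0.695-fold (0.643 to 0.752) in Ti. The ratio of the Cflar level to the Fadd level, which no scaling of a whole library changes, was 4.82 in CTL, 2.47 with Ti and 3.42 with Ti+Se-Met. Their transcripts differ in length (6572 and 3903 bases), and the part of length in this ratio was not tested. The ratio of Ripk3 to Casp8 was 0.496, 0.944 and 0.898.

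In the pro-survival group, Mcl1 and Bcl2l1 rose and Bcl2 did not. Mcl1, a short-lived guardian of the outer mitochondrial membrane, was at 62.48 FPKM in CTL, 84.22 with Ti and 76.07 with Ti+Se-Met, a 1.35-fold rise (1.29 to 1.41) in Ti. Bcl2l1, which encodes BCL-XL, was at 23.83, 33.31 and 29.9 FPKM and rose 1.40-fold (1.28 to 1.53). For both genes Ti was the highest library and CTL the lowest. Bcl2, the founding member of the family, was at 2.7, 2.57 and 3.05 FPKM, with a fold of 0.952 (0.772 to 1.17). Its level was far under those of Mcl1 and Bcl2l1 in every library.

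The 4 BH3-only genes split in 2 pairs from CTL to Ti. Bmf, whose product is held on the cytoskeleton until stress frees it, was at 3.61 FPKM in CTL, 1.05 with Ti and 1.23 with Ti+Se-Met. It fell to 0.291-fold (0.211 to 0.390) in Ti, the largest change of any member. Bcl2l11, which encodes BIM, was at 9.73 FPKM in CTL, 5.72 with Ti and 4.66 with Ti+Se-Met, and fell to 0.588-fold (0.491 to 0.705). Both genes were higher in CTL than in either Ti-treated library. Bad, whose product is kept inactive by phosphorylation under survival signals, was at 32.51, 47.98 and 37.89 FPKM and rose 1.48-fold (1.31 to 1.66). Bid, which caspase-8 cuts to link death receptors to mitochondria, was at 43.14, 49.1 and 45.5 FPKM, with a fold of 1.14 (1.06 to 1.23) at the deposited scale and a log2 ratio of -0.04 in TPM. The ratio of Mcl1 to Bcl2l11 was 6.42 in CTL, 14.7 with Ti and 16.3 with Ti+Se-Met.

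The 250 bases before the start sites of Bcl2l11 and Bmf are shown because these were the BH3-only genes that fell. They are RefSeq windows on GRCm38.p6, read 5′ to 3′ on the strand of the gene: 1 of 2 windows of Bcl2l11, at chr2:128125788-128126037 on the plus strand, and 1 of 3 windows of Bmf, at chr2:118544588-118544837 on the minus strand. Capitals in Bcl2l11 mark the reverse complement of the forkhead core TGTTTAC. The printed Bmf window holds no match to the motifs searched.
Bcl2l11: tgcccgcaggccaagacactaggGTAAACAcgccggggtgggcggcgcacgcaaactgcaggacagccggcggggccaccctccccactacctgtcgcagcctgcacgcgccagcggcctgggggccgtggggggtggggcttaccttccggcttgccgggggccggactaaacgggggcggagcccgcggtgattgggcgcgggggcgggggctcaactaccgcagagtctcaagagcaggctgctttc
Bmf: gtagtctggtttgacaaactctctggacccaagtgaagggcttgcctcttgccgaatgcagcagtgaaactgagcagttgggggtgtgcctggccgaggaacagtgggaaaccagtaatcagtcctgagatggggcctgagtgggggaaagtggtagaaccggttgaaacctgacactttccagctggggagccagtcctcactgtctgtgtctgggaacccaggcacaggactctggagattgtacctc
The forkhead core, searched on both strands, was in windows of Bcl2l11 and Casp4, 6.52% of the 46 windows of the members matched, and in 3.17% of all 32851 windows. A match is a description of the letters and not a bound site. The motifs were chosen after these sequences and the levels had been seen.

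Both pore formers among the members rose in Ti, where 42.8% of all genes rose. Bak1, which with BAX perforates the outer mitochondrial membrane, was at 32.7 FPKM in CTL, 48.85 with Ti and 40.34 with Ti+Se-Met, a 1.49-fold rise (1.38 to 1.62). Bok, a relative that can act without BAX and BAK, was at 27.39, 37.59 and 45.2 FPKM and rose 1.37-fold (1.22 to 1.54). Ti was the highest library for Bak1, and Ti+Se-Met for Bok. Bax itself, no member of the list, was at 137.34, 197.47 and 198.92 FPKM and rose 1.44-fold (1.34 to 1.54). The ratio of Bcl2l1 to Bak1 stayed between 0.682 and 0.741.

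All 5 genes for proteins of the mitochondrial intermembrane space rose in Ti at the deposited scale, where 42.8% of all genes rose. Their median log2 ratio was 0.47, beside 0.08 over all genes. Cycs, which encodes cytochrome c, the trigger of the apoptosome, was at 29.93 FPKM in CTL, 46.49 with Ti and 34.88 with Ti+Se-Met and rose 1.55-fold (1.45 to 1.67). Diablo, the antagonist of inhibitors of apoptosis also called SMAC, was at 17.68, 27.1 and 21.33 FPKM and rose 1.53-fold (1.34 to 1.75). In both genes the Ti library was the highest, and Ti+Se-Met lay between the others. Htra2, a protease that also blocks inhibitors of apoptosis, was at 27.48, 38.49 and 40.26 FPKM and rose 1.40-fold (1.26 to 1.56). Aifm1, a flavoprotein that moves to the nucleus in caspase-independent death, was at 16.18, 20.54 and 17.76 FPKM, with a fold of 1.27 (1.13 to 1.43). Endog, an endonuclease of mitochondria, was at 4.62, 6.7 and 6.01 FPKM, with a fold of 1.45 (1.03 to 2.04). Cycs, Diablo and Htra2 rose in all 4 scalings, and Aifm1 and Endog did not in every one. The library kit is not stated to keep strand, and exons of several of these genes overlap those of a neighbour on the opposite strand: 35.7% of the exon bases of Endog overlap Spout1 (11.69, 19.01 and 15.21 FPKM), 25.6% of those of Htra2 overlap Aup1 (66.69, 131.47 and 96.52 FPKM), and 25.5% of those of Bak1 overlap Ggnbp1 (1.02, 1.04 and 0.92 FPKM). Smaller shares, 21.5% of Diablo, 20.5% of Bad and 17.7% of Bid, overlap B3gnt4, Gpr137 and Bcl2l13, and 18.2% of Htra2 overlaps Loxl3 (30.36, 28.01 and 37.26 FPKM). On its own strand 19.4% of Diablo overlaps Gm49027, where strand could not separate reads either. Reads there cannot be told apart between the partners. Cycs has processed pseudogenes of near-identical sequence, so its level is uncertain to that extent.

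Windows of Cycs and Aifm1 are shown because they share a motif within the mitochondrial group. Their RefSeq positions on GRCm38.p6 are chr6:50566570-50566819 and chrX:48513564-48513813, both on the minus strand and read 5′ to 3′ up to the start site. Capitals mark the core GCATGCGC of NRF1, a factor of genes of mitochondrial respiration, and in Cycs also the cAMP response element TGACGTCA.
Cycs: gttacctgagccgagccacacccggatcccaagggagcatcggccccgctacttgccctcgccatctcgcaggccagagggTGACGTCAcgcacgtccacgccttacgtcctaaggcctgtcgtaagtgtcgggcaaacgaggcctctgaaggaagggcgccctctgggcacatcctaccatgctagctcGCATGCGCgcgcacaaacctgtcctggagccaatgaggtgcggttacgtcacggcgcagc
Aifm1: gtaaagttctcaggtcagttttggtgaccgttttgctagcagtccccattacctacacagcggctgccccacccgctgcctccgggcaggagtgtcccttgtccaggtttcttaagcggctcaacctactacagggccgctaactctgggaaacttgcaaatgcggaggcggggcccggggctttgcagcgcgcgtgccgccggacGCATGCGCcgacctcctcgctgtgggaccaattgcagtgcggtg
Searched on both strands, the NRF1 core was in 4 windows, those of Aifm1, Cycs, Dhx33 and Fadd, which is 8.70% of the members' windows and 2.26% of all windows. The cAMP response element was in the window of Cycs alone among the members (2.17%, beside 1.55% of all windows). The AP-1 site TGAGTCA was in a window of P2rx7 (2.17%, beside 4.46%). Of the 36 members 34 were matched to windows, and Htra2 and Gsdmd were not.

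Xiap, which binds and blocks caspases directly, was at 17.83 FPKM in CTL and at 10.37 FPKM in both Ti and Ti+Se-Met. It fell to 0.582-fold (0.536 to 0.630) in Ti, and both treated libraries were well under CTL. The ratio of Diablo to Xiap, an antagonist over its target, was 0.992 in CTL, 2.61 with Ti and 2.06 with Ti+Se-Met. Xiap, with 6542 bases, lies in the longest of the length classes described at the end, and Diablo, with 1576 bases, in a shorter one. The part of transcript length in their ratio was not tested.

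The gasdermins differed from each other. Gsdme, whose product can turn apoptosis into a lytic death once it is cut, was at 8.51 FPKM in CTL, 16.27 with Ti and 14.36 with Ti+Se-Met and rose 1.91-fold (1.63 to 2.24) in Ti. Gsdmd, the gasdermin of the inflammasome, was at 6.78, 6.9 and 6.31 FPKM, with a fold of 1.02 (0.814 to 1.27). The ratio of Gsdme to Gsdmd was 1.26 in CTL, 2.36 with Ti and 2.28 with Ti+Se-Met.

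Of the 7 inflammasome genes, 5 passed the filter. Of these 5 genes, 2 fell from CTL to Ti and 1 rose, where 31.9% of all genes fell and 42.8% rose. So few genes cannot set the group apart from all genes. Pycard, the adaptor ASC, was listed at 0.04 FPKM in CTL and at 0 in Ti and Ti+Se-Met. Il18, a cytokine that caspase-1 matures, was at 7.9 FPKM in CTL, 4.9 with Ti and 5.11 with Ti+Se-Met and fell to 0.620-fold (0.428 to 0.895) in Ti. Nek7, a kinase that docks on NLRP3, was at 28.84, 20.81 and 22.69 FPKM and fell to 0.722-fold (0.672 to 0.775). For Il18 and Nek7 both treated libraries were under CTL. P2rx7, the ATP-gated channel that triggers NLRP3, was at 5.01, 5.66 and 4.29 FPKM, with a fold of 1.13 (0.880 to 1.46). Panx1, a channel that releases ATP, was at 0.64, 0.96 and 0.86 FPKM and did not pass the filter, and its Ti over CTL fold was 1.5 (1.04 to 2.16). Nlrx1, a mitochondrial member of the NOD-like receptors that dampens signalling, was at 1.55, 1.85 and 1.49 FPKM, with a fold of 1.19 (0.871 to 1.63). No difference in P2rx7 or Nlrx1 was detectable at this depth. Dhx33, an RNA helicase that senses cytosolic RNA for NLRP3, was at 9.7, 12.25 and 8.69 FPKM and rose 1.26-fold (1.14 to 1.40) in Ti, with the Ti library highest. In TPM the interval of Dhx33 spanned 1.

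Inflammasome genes are typical of macrophages, so markers of that cell type were read beside them. Of 11 macrophage markers 7 were listed, and the defining markers Adgre1, Itgam, Ptprc and Tyrobp were not. Csf1r was at 0.02 FPKM in CTL, 0.07 with Ti and 0.1 with Ti+Se-Met. The summed level of the list was 33.09, 31.96 and 27.95 FPKM, most of it from Lyz2 (26.72, 14.76 and 12.42 FPKM) and Cd14 (5.7, 16.56 and 14.81 FPKM). The part of these in the levels of the inflammasome genes was not tested. The 5 osteoclast markers listed summed to 27.32, 31.26 and 28.25 FPKM. In this sum Ctsk (17.78, 29.68 and 26.22 FPKM) and Mmp9 (9.48, 1.46 and 1.95 FPKM) went in opposite directions. The other 3 were below 1 FPKM in every library. The endothelial and adipocyte markers listed were all below 1 FPKM.

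The second comparison asked which members differed between the Ti+Se-Met and CTL libraries, and it shares the CTL library with the first. Ripk3, Gsdme and Bok were at least 1.5-fold higher in Ti+Se-Met, and Bmf, Bcl2l11, Xiap and Casp12 at least 1.5-fold lower. The 3 higher members were 9.09% of those that passed, beside 10.4% of all genes, and the 4 lower ones 12.1%, beside 11.7%. On the log2(FPKM + 1) scale only Bmf reached 2-fold among the members, where 5.96% of all genes did. By their intervals 12 members rose (36.4%, beside 35.9% of all genes), 8 fell (24.2%, beside 33.4%) and 13 spanned 1, and the median log2 ratio was 0.08 over the members and 0.01 over all genes. In this comparison the members' shares were near or under those of all genes.

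By size, the fold over CTL was 1.92 (1.55 to 2.40) for Ripk3, 1.69 (1.42 to 2.01) for Gsdme and 1.65 (1.47 to 1.86) for Bok. Bmf was at 0.341-fold (0.244 to 0.472), Bcl2l11 at 0.479-fold (0.384 to 0.595), Xiap at 0.582-fold (0.531 to 0.636) and Casp12 at 0.619-fold (0.538 to 0.709). Among genes under 1.5-fold on the log2(FPKM + 1) scale, Htra2 rose 1.47-fold (1.31 to 1.64), Casp6 1.41-fold (1.19 to 1.67), Bcl2l1 1.26-fold (1.14 to 1.39) and Mcl1 1.22-fold (1.15 to 1.28). Casp9 fell to 0.761-fold (0.610 to 0.944), Nek7 to 0.787-fold (0.728 to 0.850), Cflar to 0.838-fold (0.772 to 0.910) and Il18 to 0.647-fold (0.430 to 0.971). Casp9 is the only initiator caspase with an interval off 1 at the deposited scale in this comparison, and in TPM that of Casp2 also lay below 1. Cycs was 1.17-fold (1.07 to 1.27) and Diablo 1.21-fold (1.03 to 1.41), both under their Ti folds. Casp4 stood at 0.997-fold (0.743 to 1.34).

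In this comparison, too, the counts depended on the scaling. The split of 3 higher and 4 lower members became 1 and 5 in TPM, 3 and 4 with median-of-ratios scaling and 3 and 5 with upper-quartile scaling. Among all genes the shares were, in the same order, 5.84% and 19.2%, 11.2% and 11.2%, and 8.38% and 14.0%. The split of 12 rises and 8 falls became 6 and 12, 12 and 8, and 10 and 9. Among all genes the rises and falls were 21.8% and 47.5%, 37.5% and 31.9%, and 30.9% and 37.7%. Casp6, Ripk3, Mcl1, Bok, Htra2 and Gsdme rose in all 4 scalings, and Casp9, Casp12, Cflar, Bcl2l11, Bmf, Xiap, Nek7 and Il18 fell in all 4. The log2 ratio of Aifm1, Bcl2, Bid, Casp4, Casp8 and Ripk1 changed sign between scalings.

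The third comparison set the library of particles with Se-Met against that of particles alone. No member was 1.5-fold higher or lower, where 0.844% of all genes were higher and 1.28% lower, and none reached 2-fold, where 0.224% of all genes did. By their intervals 3 members rose (Cflar, Bok and Nek7, 9.09%, beside 15.7% of all genes) and 9 fell (Casp4, Bcl2l1, Mcl1, Bad, Bak1, Cycs, Diablo, Aifm1 and Dhx33, 27.3%, beside 29.1%), and 21 spanned 1. The median log2 ratio was -0.14 over the members and -0.06 over all genes. These shares were near or under those of all genes.

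The largest falls were in Dhx33, to 0.709-fold (0.633 to 0.795), and Casp4, to 0.720-fold (0.546 to 0.947). In the mitochondrial group Cycs fell to 0.750-fold (0.697 to 0.808), Diablo to 0.787-fold (0.684 to 0.905) and Aifm1 to 0.865-fold (0.760 to 0.983), but Htra2 was at 1.05-fold (0.945 to 1.16). Genes of 1 role thus did not all go the same way. Bad was at 0.790-fold (0.700 to 0.891), Bak1 at 0.826-fold (0.761 to 0.896), Bcl2l1 at 0.898-fold (0.819 to 0.985) and Mcl1 at 0.903-fold (0.860 to 0.949). Genes for and against death were thus among the falls, but that of Bcl2l1 did not hold in all 4 scalings. Bcl2, another pro-survival gene, was at 1.19-fold (0.951 to 1.48). Cflar rose 1.21-fold (1.10 to 1.32), Bok 1.20-fold (1.08 to 1.34) and Nek7 1.09-fold, with a lower bound just over 1.

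Several of the genes that were farthest from CTL did not differ between the treated libraries beyond counting error. Ripk3 was at 0.959-fold (0.803 to 1.15), Gsdme at 0.883-fold (0.763 to 1.02) and Xiap at 1.00-fold (0.907 to 1.10). Bmf was at 1.17-fold (0.790 to 1.77), an interval that still holds changes of more than 1.5-fold, and Bcl2l11 at 0.815-fold (0.641 to 1.03). The 3 rises and 9 falls became 3 and 7 in TPM and with median-of-ratios scaling and 4 and 7 with upper-quartile scaling. Among all genes, 15.7% rose and 29.1% fell at the deposited scale, and 18.6% and 24.8% in TPM. With upper-quartile scaling 22.8% of all genes rose and 19.6% fell, and with median-of-ratios scaling 22.4% rose and a smaller share fell. Falls among all genes thus outnumbered rises only at the deposited scale and in TPM. Cflar, Bok and Nek7 rose in all 4 scalings, and Casp4, Mcl1, Bad, Bak1, Cycs, Diablo and Dhx33 fell in all 4, while the log2 ratio of Ripk3 changed sign.

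**Figure D3:**
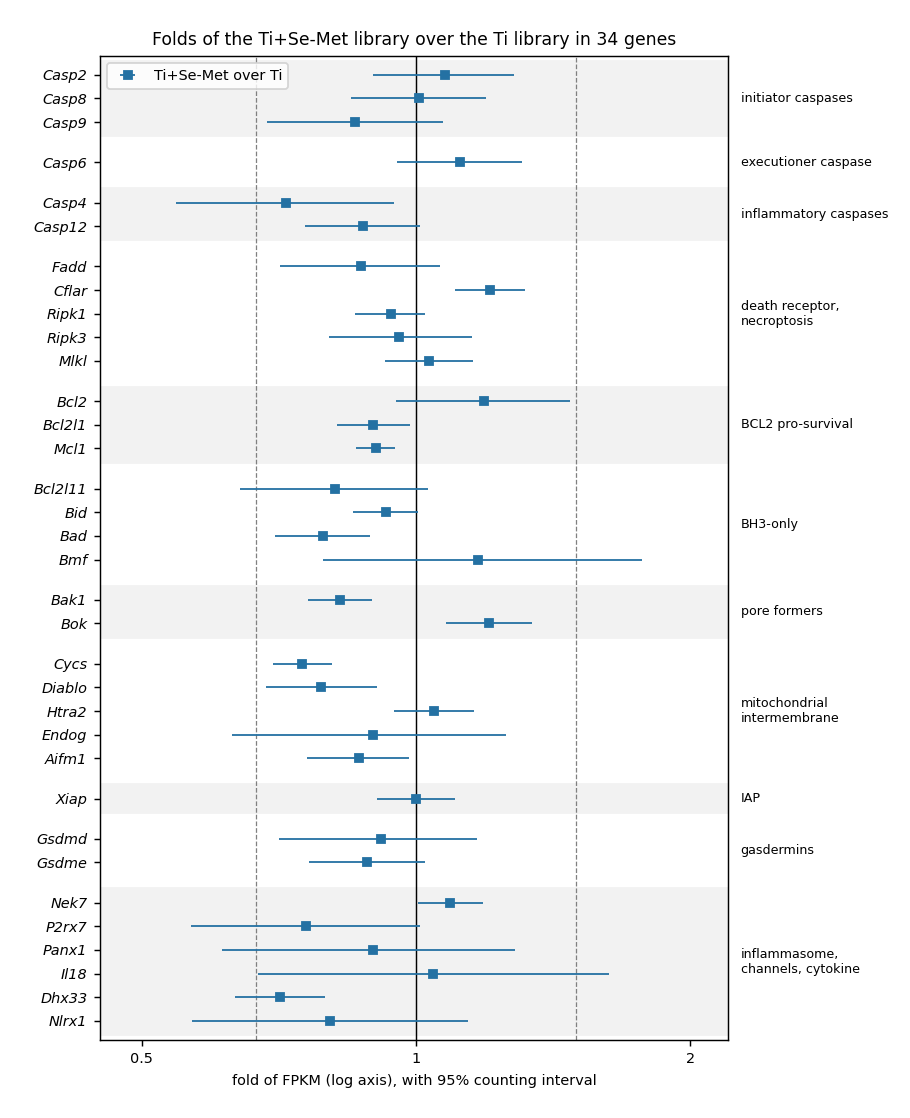
Fold of FPKM in the Ti+Se-Met library over the Ti library (horizontal log axis) for the 34 genes other than Casp1 and Pycard, by role, with bars for 95% counting intervals, a solid line at 1 and dashed lines at 1.5-fold in either direction. Every fold lies inside the dashed lines, from 0.709 for Dhx33 to 1.21 for Cflar.

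Other genes of these pathways, taken from a list of 57 and named by function, were read in the same way. The table lists 49 of them, and 37 passed the filter. Nlrp3, Nlrc4, Il1b, Gsdmc, Pmaip1, Bcl2a1a, Bcl2a1b and Bcl2a1d are not listed and were not analysed here. In Ti, 3 were at least 1.5-fold higher (Birc5, Zbp1 and Il1rn, 8.11%, beside 15.5% of all genes) and 6 lower (Birc2, Birc3, Birc6, Cyld, Nlrc5 and Naip5, 16.2%, beside 11.3%), and the median log2 ratio was 0.01. For Ti+Se-Met over CTL, 3 were higher (8.11%, beside 10.4%) and 9 lower (24.3%, beside 11.7%), with a median of -0.26, and against Ti none passed 1.5-fold, with a median of -0.13. Il1rn, at 0.51 FPKM in CTL, 1.95 with Ti and 1.62 with Ti+Se-Met, passed the filter only through the treated libraries. Nod2, among the 9 lower, passed only through CTL (1.11, 0.41 and 0.38 FPKM).

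Of the 6 lower genes of that list, 4 belong to the inhibitors of apoptosis or edit ubiquitin at death receptors (Birc2, Birc3, Birc6 and Cyld). Birc2, which encodes the ubiquitin ligase cIAP1, was at 22.69 FPKM in CTL, 7.41 with Ti and 6.53 with Ti+Se-Met, and fell to 0.327-fold (0.288 to 0.371) in Ti. Birc3, which encodes cIAP2, was at 9.78, 4.75 and 5.6 FPKM. Cyld, a deubiquitinase of RIPK1, was at 11.93, 5.62 and 6.91 FPKM and fell to 0.471-fold (0.422 to 0.524). In these 3 genes both treated libraries were under CTL. Zbp1, a sensor of Z-form nucleic acids that recruits RIPK3, was at 21.12, 38.72 and 33.85 FPKM and rose 1.83-fold (1.62 to 2.09). Birc5, the mitotic protein survivin of the same family as Xiap, was at 18.6, 37.86 and 46.25 FPKM. Naip5, at 3.25, 1.29 and 1.29 FPKM, belongs to a family of closely similar genes, between which reads can be split. Nod1, a sensor of bacterial cell walls, was at 9.76, 6.24 and 6.04 FPKM.

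Transcript length moved with the Ti over CTL ratios. Over the 33 members the log2 ratio had a Pearson r of -0.37 and a Spearman rho of -0.43 with log2 transcript length, and over all 10918 genes with a length r was -0.29 and rho -0.33. These are descriptions across genes of the same libraries, and genes are not independent replicates. The median log2 ratio of all genes was 0.45 under 1000 bases and -0.21 from 6000 bases, the class of Xiap, Cflar and Ripk1. With the median of its length class taken from each gene, Ripk3 and Gsdme were still at least 1.5-fold higher and Bcl2l11, Bmf and Il18 lower, joined by Casp12, while Cycs, Diablo and Xiap were under 1.5-fold. These were 2 higher and 4 lower of 33 members, beside 9.63% higher and 12.9% lower of all genes after the same step. Against CTL, Ti+Se-Met gave the same 2 higher and 4 lower members after this step, with Bok and Xiap under 1.5-fold. Among all genes 8.57% were then higher and 11.3% lower. The part of transcript length, or of RNA quality, in these ratios was not tested.

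**Figure D4:**
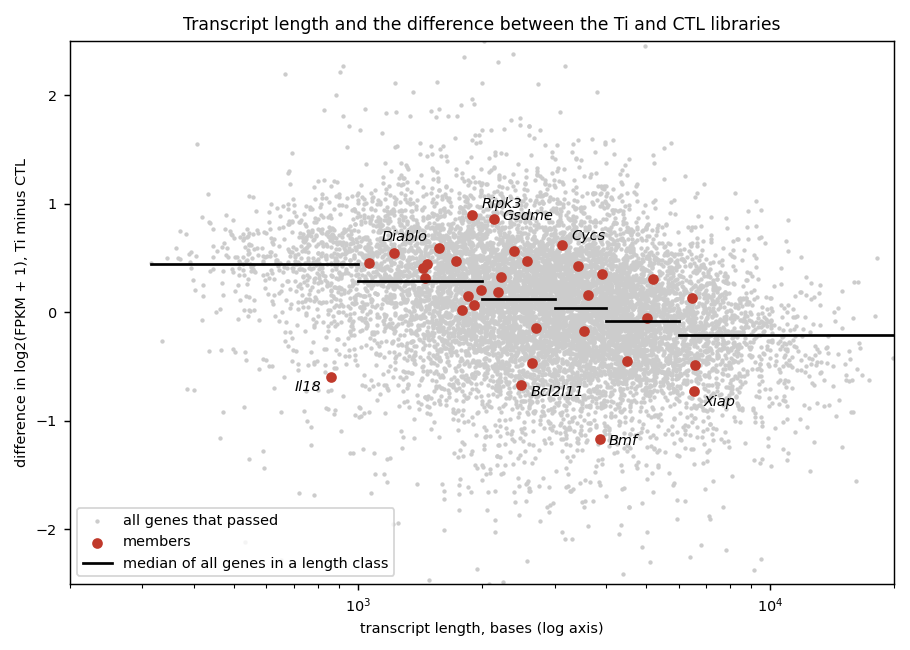
Transcript length in bases (horizontal log axis) and the difference in log2(FPKM + 1) between the Ti and CTL libraries (vertical axis) for all genes that passed (grey) and the 33 members (red), with lines for the median of all genes in each of 6 length classes, and 22 genes outside the axes. The class medians go down from 0.45 to -0.21 with length, and Ripk3 and Gsdme lie well above and Bmf, Bcl2l11 and Il18 well below the lines of their classes.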

How the data were processed

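RNA-seq values of 3 libraries of MC3T3-E1 cells were read from the FPKM table that the authors deposited, with 1 column per library and values rounded to 2 decimals. Per the submitters' processing notes, HISAT2, StringTie, SAMtools and the mouse build mm9 were used, and the study's methods also name HTSeq. How FPKM was computed is not given in the sources used here. FPKM values are relative to each library's own total, so another scaling can move every ratio. The members and gene lists were chosen with earlier results of these data known.

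From the deposited FPKM values, differences in log2(FPKM + 1) were taken in Python 3.11.15 (numpy 2.4.6, pandas 2.3.3, scipy 1.17.1), and genes with at least 1 FPKM in at least 1 library (11137 of 15287) were counted at 1.5-fold. No count model was used. Depths came from 479 genes with transcripts of 350 to 1000 bases, with 150 bases subtracted, where 51.5%, 43.0% and 41.2% of low values lay on a fragment step in CTL, Ti and Ti+Se-Met (chance 9.67%, 10.0% and 6.90%). Lengths were from GENCODE on GRCm38, matched by accession and capped at the RefSeq gene span, for 98.0% of the genes that passed. Intervals use these estimated fragments and cover counting error only. As GRCm38 is not mm9, no coordinates are given for values, and promoter windows are RefSeq's, matched by symbol. All 36 members were named by rule, and other genes were named from the list of pathway genes, the marker lists or as exon neighbours. Some genes of the pathway list are not reported here. Other settings tried were 2-fold, a pseudocount of 0.1 or 5, a filter on a mean FPKM of 5 or none, scaling by TPM, upper quartile or median of ratios, depths halved or doubled and, added after the data were seen, ratios less the median of the length class. The steps were tested on simulated data.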

Additional observations from a re-analysis of the deposited data

How the results depend on the processing

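No paired analysis was possible because there was 1 library for each condition, and for that reason no library could be left out. The number of members past 1.5-fold in Ti against CTL, 8, was 2 with a pseudocount of 5 and 1 at 2-fold, and in Ti+Se-Met against CTL, 7, it was also 2 and 1. A larger pseudocount shrinks ratios by construction. The median log2 ratio of the members in Ti+Se-Met against CTL, 0.08, was -0.11 in TPM, where that of all genes was -0.17 (0.01 at the deposited scale). The number of members whose interval was off 1 in Ti+Se-Met against Ti, 12, was 20 with every depth doubled and 8 with every depth halved, since the intervals narrow with depth. Under the other alternatives run, the counts of both directions together stayed within 1.5 times and medians kept their sign. Counts of 1 direction moved more: in TPM the rises went from 19 to 10 in Ti and from 12 to 6 in Ti+Se-Met, each over CTL. Over all genes these rises went from 42.8% to 27.8% and from 35.9% to 21.8%. Of the single members, TPM moved 17 beyond their counting interval for Ti over CTL and 14 for Ti+Se-Met over CTL, upper-quartile scaling moved 9 for Ti over CTL, and none past 1.5-fold turned its direction. Ripk1, Mlkl and Bid, whose intervals were above 1 in Ti at the deposited scale, had log2 ratios of -0.09, -0.02 and -0.04 in TPM. Ti+Se-Met was the shallowest library, so low values there, such as those of Il18, Bmf, Panx1, Nlrx1 and Endog, are the least precise.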

Other observations

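Ferroptosis, a death by lipid peroxidation that needs iron and that the selenoenzyme GPX4 holds back, has no gene among the 36 members. Of the genes that the deposited table assigns to the KEGG term for ferroptosis, 32 of 38 passed the filter. In Ti against CTL 13 were at least 1.5-fold higher (40.6%, beside 15.5% of all genes) and 1 was lower, Acsl3 (3.12%, beside 11.3%). The median log2 ratio was 0.54. For Ti+Se-Met over CTL 9 were higher (28.1%, beside 10.4% of all genes) and 1 was lower, Sat2 (3.12%, beside 11.7%). The median there was 0.37. In Ti+Se-Met against Ti 1 was higher, Acsl3 (3.12%, beside 0.844%), and 1 was lower, Hmox1 (3.12%, beside 1.28%), with a median of -0.12. The term was read after earlier results of these data were known.

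The 5 genes of that term past 2-fold in Ti against CTL, of the 32 that passed, were all higher and serve iron and glutathione. Among all genes, 3.63% were at least 2-fold higher in Ti. Hmox1, which breaks down heme and frees iron, was at 54.84 FPKM in CTL, 203.87 with Ti and 96.48 with Ti+Se-Met. Ftl1, the light chain of ferritin, was at 2575.47, 5414.89 and 5385.91 FPKM, and reads of ferritin pseudogenes may count towards it. Gss, glutathione synthetase, was at 12.9, 30.26 and 23.19 FPKM. Slc39a14, a metal importer, was at 12.27, 25.73 and 22.5 FPKM, and Steap3, an iron reductase, at 0.53, 2.37 and 1.87 FPKM. Steap3 passed the filter only through the treated libraries. In all 5 both treated libraries were above CTL, and for Hmox1 the Ti+Se-Met library was far under Ti. Over CTL, 15.5% of all genes were at least 1.5-fold higher in Ti and 11.3% lower. Beside these, the KEGG term for necroptosis had 12.4% higher and 10.5% lower of 105 genes that passed, that for apoptosis 17.6% and 11.1% of 108, that for p53 signalling 25.9% and 15.5% of 58, and that for NOD-like receptor signalling 10.7% and 13.2% of 121. These terms hold 12, 21, 4 and 18 of the 36 members. No replicate check was possible for any of these counts.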
